A study of Mus musculus with 6 samples.

Results

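The genes described here encode receptors and enzymes of 2 signalling lipids, lysophosphatidic acid (LPA) and sphingosine 1-phosphate (S1P). The 10 genes are Lpar1, Lpar2, Lpar3, Lpar4, Lpar6, S1pr1, S1pr2, S1pr3, Sphk1 and Enpp2. They were chosen by name and found by their Ensembl identifier among the 55536 genes listed for each library. Transcripts were measured by RNA sequencing in SVEC4-10, an immortalised mouse line that its labels call endothelial. The 3 control libraries came from untreated cells. The 3 nattokinase libraries came from cells kept for 24 hours with nattokinase, a protease of Bacillus subtilis that degrades fibrin, and the labels name no dose. All cells grew in medium with fetal bovine serum. Both groups are the same line, no label says that replicates were separate cultures, and p-values therefore measure only the spread between these libraries, which may be technical.

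LPA and S1P act outside the cell on G-protein-coupled receptors. Autotaxin, the secreted enzyme encoded by Enpp2, makes LPA from lysophosphatidylcholine, whereas sphingosine kinases, among them the product of Sphk1, make S1P inside the cell, from which transporters such as Spns2 release it. The products of Lpar1, Lpar2, Lpar3 and the S1P receptor genes form one receptor family, and those of Lpar4 and Lpar6 belong to a separate branch related to P2Y nucleotide receptors. In blood vessels S1pr1 is known for tightening the endothelial barrier through Gi proteins, and S1pr2 for loosening it. Serum carries both lipids.

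In these cells the transcripts of S1pr2, Lpar1 and Lpar2 were the most abundant of the 10, those of Lpar6, S1pr1 and Sphk1 were lower, and those of Lpar3, Lpar4, S1pr3 and Enpp2 were at or near 0. Levels are in FPKM, reads assigned to a gene scaled to its exon length and to the library total, which was 15044778 to 18341370 reads. No member passed the test for a difference between nattokinase and control cells. Of the 5 members that could be tested, 0 were called higher or lower by limma at a Benjamini-Hochberg adjusted p of 0.05 over 10913 genes, and 1, Lpar6, had an unadjusted limma p under 0.05. Over all genes tested 8.85% were called, 5.61% higher and 3.24% lower, and 22.9% had an unadjusted p under 0.05, so that 1 of 5 members is not above the background. With limma-voom on the recovered reads the numbers of members were also 0 and 1. Over the 13 alternative settings the unadjusted limma p of Lpar6 ran from 0.013 to 0.19 and was under 0.05 in 3 of them. That of Lpar1 was under 0.05 in 1, with totals of protein-coding genes only (limma adjusted p = 0.16, unadjusted p = 0.031). The other 5 members did not reach 1 FPKM in 3 libraries and were not tested in this fit. In bulk RNA a smaller share of cells with a transcript and less of it per cell cannot be told apart.

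The sequences before the start sites of 4 genes of the shared LPA and S1P receptor family are shown to set 2 genes with at most 1 read in any library, Lpar3 and S1pr3, beside 2 that were detected, Lpar2 and S1pr2. They were chosen after the levels were seen. Each run is the 250 bases before the RefSeq start in build GRCm38.p6, on the strand of the gene, with every CpG in capitals.
Lpar3, chr3:146220711-146220960, plus strand: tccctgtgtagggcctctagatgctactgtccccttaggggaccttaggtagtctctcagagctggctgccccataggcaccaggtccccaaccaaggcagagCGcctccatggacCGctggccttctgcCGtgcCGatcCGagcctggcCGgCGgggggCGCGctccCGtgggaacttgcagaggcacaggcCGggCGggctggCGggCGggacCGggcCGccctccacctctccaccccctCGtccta
Lpar2, chr8:69822315-69822564, plus strand: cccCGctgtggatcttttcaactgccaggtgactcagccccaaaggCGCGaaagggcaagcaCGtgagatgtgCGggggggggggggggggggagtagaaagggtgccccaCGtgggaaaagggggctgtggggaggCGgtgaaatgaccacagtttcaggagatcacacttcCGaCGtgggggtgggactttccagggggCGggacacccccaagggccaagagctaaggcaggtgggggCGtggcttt
S1pr3, chr13:51408368-51408617, plus strand: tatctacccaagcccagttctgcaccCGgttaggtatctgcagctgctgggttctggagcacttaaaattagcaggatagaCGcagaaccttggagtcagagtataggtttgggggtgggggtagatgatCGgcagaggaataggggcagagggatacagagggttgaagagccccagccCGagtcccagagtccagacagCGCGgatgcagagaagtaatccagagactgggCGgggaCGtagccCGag
S1pr2, chr9:20976794-20977043, minus strand: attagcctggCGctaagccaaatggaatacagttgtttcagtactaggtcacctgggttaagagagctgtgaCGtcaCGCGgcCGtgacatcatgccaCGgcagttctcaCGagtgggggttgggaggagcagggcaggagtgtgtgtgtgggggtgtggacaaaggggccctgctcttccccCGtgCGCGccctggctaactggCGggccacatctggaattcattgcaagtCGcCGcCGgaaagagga
The Lpar3 window holds 17 CpG, although no library had an Lpar3 read, and the window of Lpar2 holds 11. The windows of the 3 start sites of Lpar1, the other detected LPA receptor gene of this family, hold 3 to 28 CpG, so that Lpar3 lies within their range. The S1pr3 window holds 9 CpG and that of S1pr2 holds 14. Among all 32851 RefSeq windows of this kind, 23.5% hold at least as many CpG as that of Lpar3. The median was 16 CpG in windows of genes tested here and 2 in windows of genes with 0 reads in all 6 libraries. The motif GGGCGG, searched on both strands, lies in the windows of Lpar2, Lpar3 and S1pr3 and is not in these letters for S1pr2. Among the other members it lies in the Lpar4 window and in the Lpar1 windows with 11 and 28 CpG. It is absent from the Lpar1 window with 3 CpG and from the windows of Lpar6 and Sphk1. This motif occurs in 32.7% of all windows, and its letters contain a CpG. Its share was 60.6% in windows of genes tested here and 13.1% in windows of genes with 0 reads in all 6 libraries. In the separate branch, the window of Lpar6, which had 138 to 266 reads, holds 1 CpG and that of Lpar4 holds 3. Of the 10 members 8 matched the RefSeq table, all but S1pr1 and Enpp2. Windows of Sphk1 hold 4 to 19 CpG over its 5 start sites.

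Lpar1 encodes the LPA receptor that is most widely expressed in tissues and couples to several G proteins. Its level was 5.71, 5.73 and 5.43 FPKM in control replicates 1 to 3 and 5.04, 5.33 and 4.98 FPKM in nattokinase replicates 1 to 3. All 3 treated libraries lay below all 3 controls, with the smallest gap between control replicate 3 and nattokinase replicate 2. That gap was smaller than the average counting error, 0.29 FPKM in the controls and 0.26 FPKM with nattokinase. Mean levels were 5.62 ± 0.17 and 5.12 ± 0.19 FPKM (SD, n = 3 each), a ratio of 0.910. The log2 fold change, here and below on the log2(FPKM + 1) scale as nattokinase minus control, was −0.11 (SE 0.056, 95% interval −0.24 to 0.012) with a limma adjusted p of 0.27. The gene lies at chromosome 4, 58435255 to 58553898 (GRCm38, GENCODE M21), and the values rest on 370 to 401 reads per library.

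Lpar2 encodes a second receptor of the same family. It stood at 4.77, 5.34 and 4.78 FPKM in the controls and at 4.37, 4.93 and 5.03 FPKM with nattokinase. The groups overlapped, since 2 treated libraries lay within the range of the controls and 1 below it. The log2 fold change was −0.047 with an SE of 0.069 (95% interval −0.20 to 0.11), and the limma adjusted p was 0.75. Lpar2 spans 69822429 to 69831102 on chromosome 8, with 451 to 538 reads per library.

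Lpar6, whose receptor couples to the Gna12 and Gna13 family and is known from hereditary hair loss, had the largest difference in size among the tested members. Its level was 2.19, 1.70 and 2.47 FPKM in the controls and 2.53, 2.81 and 2.51 FPKM with nattokinase. Every treated library lay above every control, but control replicate 3 and nattokinase replicate 3 differed by less than the counting error of either, which averaged 0.16 FPKM. The ratio of means was 1.23, from 2.12 ± 0.39 to 2.62 ± 0.17 FPKM (SD, n = 3 each). The log2 fold change was 0.22 (SE 0.097, 95% interval 0.0031 to 0.44), and the limma adjusted p was 0.21 (unadjusted p = 0.047). Control replicate 2 was the lowest of the 6 libraries. Without it the log2 fold change was 0.12 (limma adjusted p = 0.50), which is lower by more than 1.5 times.

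Lpar6 lies within a gene of the opposite strand. It spans chromosome 14, 73237895 to 73243294 on the plus strand, inside the retinoblastoma gene Rb1 (73183673 to 73325822, minus strand), and an exon of a short Rb1 transcript overlaps it. The labels do not say whether reads were counted by strand, so reads of Rb1 and Lpar6 in the shared stretch cannot be told apart. Rb1 itself had 5.38, 4.64 and 5.04 FPKM in the controls and 5.36, 5.10 and 5.13 FPKM with nattokinase. The library with the lowest Lpar6 level, control replicate 2, also had the lowest Rb1 level. The ratio of Lpar6 to Rb1 was 0.407, 0.366 and 0.490 in the controls and 0.472, 0.551 and 0.490 with nattokinase, and these ranges overlapped.

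Lpar3 had 0 reads in all 6 libraries. A count of 0 allows up to 3 reads, or between 0.066 and 0.081 FPKM per library, for counting error only. Lpar4, the closest relative of Lpar6, had 2, 2 and 1 reads in the controls and 2, 2 and 0 with nattokinase, at most 0.031 FPKM. No difference between groups is detectable at this depth for either gene. Lpar5, a receptor gene outside the 10, also had 0 reads in every library.

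**Figure D1:**
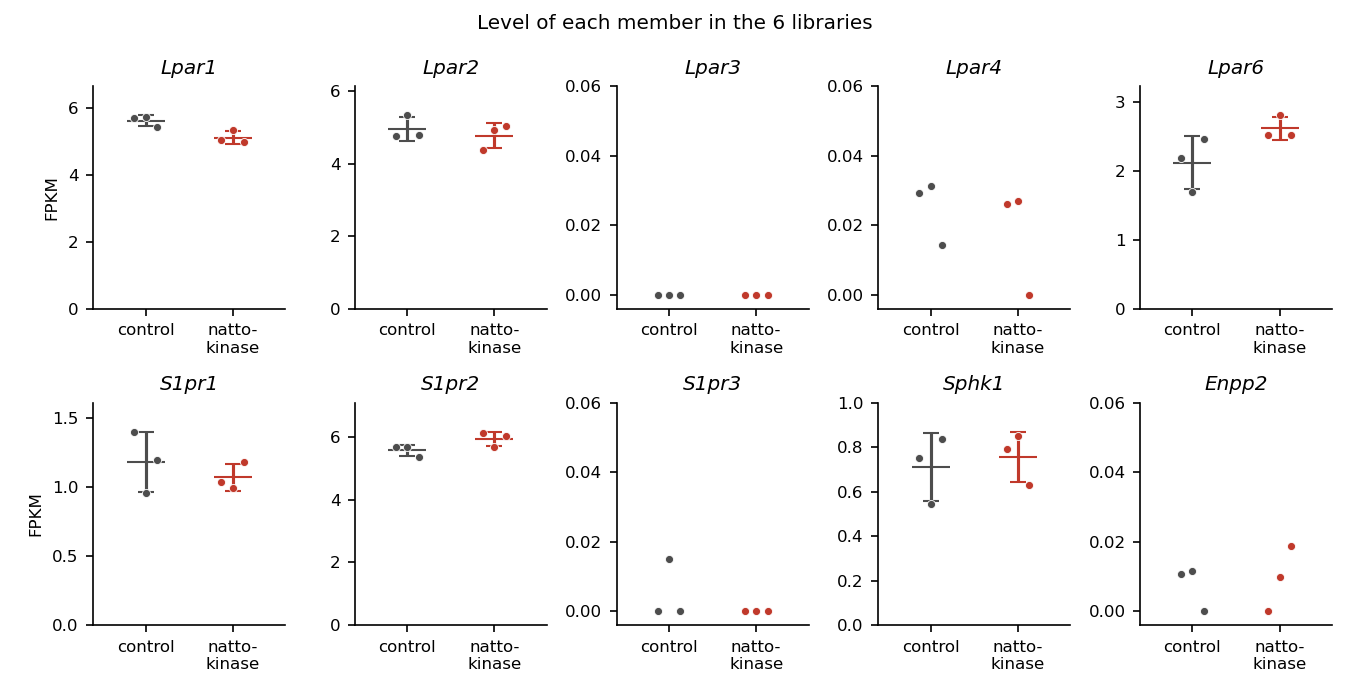
FPKM of each of the 10 members (vertical axes, each panel with its own linear scale) in 3 control and 3 nattokinase libraries; points are libraries, and bars are means with SD for members with more than 3 reads in some library. Lpar1 is lower and Lpar6 and S1pr2 are higher in every treated library than in every control, by small margins, while Lpar3, Lpar4, S1pr3 and Enpp2 stay under 0.04 FPKM.

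S1pr2, the S1P receptor gene with the highest level, encodes a receptor that acts through Gna12 and Gna13. It was measured at 5.67, 5.68 and 5.37 FPKM in the controls and 6.12, 5.68 and 6.03 FPKM with nattokinase. The treated libraries were the 3 highest, although control replicate 2 and nattokinase replicate 2 were almost equal. Means were 5.57 ± 0.18 and 5.95 ± 0.23 FPKM (SD, n = 3 each). On the log2 scale the difference was 0.079 with an SE of 0.056 (95% interval −0.047 to 0.21), and the limma adjusted p was 0.45. S1pr2 lies at chromosome 9, 20962361 to 20976781, and had 681 to 882 reads per library, the most of the 10 members.

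S1pr1 encodes the Gi-coupled receptor that dominates in most endothelial cells. Here its level was 1.40, 0.960 and 1.19 FPKM in the controls and 1.04, 0.993 and 1.18 FPKM with nattokinase, so that all treated libraries lay inside the range of the controls. The log2 fold change was −0.073 with an SE of 0.099 (95% interval −0.30 to 0.15), at a limma adjusted p of 0.73. S1pr1 spans 115710433 to 115715072 on chromosome 3. With 44 to 69 reads per library, the average counting error was 0.16 FPKM in the controls, beside an SD of 0.22. With a pseudocount of 0.1 in place of 1, which compresses low genes less, the log2 fold change was −0.12 with a 95% interval from −0.51 to 0.26.

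S1pr3, the remaining S1P receptor of the family commonly found in vessels, had 1 read in control replicate 2 and 0 in the other 5 libraries. The upper limit from a count of 0 would be 0.037 to 0.045 FPKM over the 6 library sizes. Its largest value belongs to control replicate 2, where the 1 read was found. Its exons overlap those of the antisense gene Gm32834, which had 0 to 3 reads. S1pr4 and S1pr5, receptors mainly of blood and nervous tissue cells, had at most 2 and 4 reads.

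Of the enzymes, Sphk1 was low and Enpp2 almost silent. Sphk1 had 0.750, 0.543 and 0.838 FPKM in the controls and 0.790, 0.849 and 0.628 FPKM with nattokinase (39 to 71 reads; chromosome 11, 116530925 to 116536674). The groups overlapped over most of their range. Pooled reads gave 0.715 FPKM in the controls (exact Poisson 95% interval 0.609 to 0.834) and 0.754 with nattokinase (0.652 to 0.868), intervals that cover counting error only. When the filter was lowered to 0.5 FPKM, Sphk1 was tested and had a log2 fold change of 0.040 (95% interval −0.20 to 0.28; limma adjusted p = 0.87). Sphk2, the other sphingosine kinase gene, stood higher, at 6.97 ± 0.31 FPKM in the controls and 6.93 ± 0.54 with nattokinase (SD, n = 3 each). Exons of Sphk2 overlap those of Dbp and Rpl18, and exons of Sphk1 those of the antisense gene Gm29292, which had 0 to 2 reads. Enpp2 had 1, 1 and 0 reads in the controls and 0, 1 and 2 with nattokinase, at most 0.019 FPKM.

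The order of levels over the 6 libraries was S1pr2 at 5.76 ± 0.27, Lpar1 at 5.37 ± 0.32, Lpar2 at 4.87 ± 0.32, Lpar6 at 2.37 ± 0.38, S1pr1 at 1.13 ± 0.16 and Sphk1 at 0.733 ± 0.12 FPKM (SD, n = 6). The ranges of S1pr2 and Lpar1 overlapped, as did those of Lpar1 and Lpar2. The range of Lpar2 lay wholly above that of Lpar6, that of Lpar6 above that of S1pr1, and that of S1pr1 above that of Sphk1. The lowest 4 genes, Lpar4, Enpp2, S1pr3 and Lpar3, had at most 2 reads in any library and their order carries no information. Levels between genes depend on the length used. FPKM here divide by the merged exons of all annotated transcripts, which for Sphk1 are 3.12 times as long as its principal transcript. Per kilobase of principal transcript, a choice made after seeing the data, Sphk1 would stand at 2.28 ± 0.38, next to Lpar6 at 2.37 and above S1pr1 at 1.13. On that measure S1pr2 would stand at 7.18 ± 0.34, Lpar1 at 6.50 ± 0.39 and Lpar2 at 4.90 ± 0.32. The overlaps of ranges given above are for merged exons.

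The summed level of each receptor family was similar in the groups. LPA receptor transcripts summed to 12.7, 12.8 and 12.7 FPKM in the controls and 11.96, 13.1 and 12.5 FPKM with nattokinase. Of this sum Lpar1 made up 44.2% ± 1.216 in the controls and 40.9% ± 1.18 with nattokinase, Lpar2 39.0% ± 2.38 and 38.1% ± 1.85, and Lpar6 16.7% ± 3.14 and 20.9% ± 0.72 (SD, n = 3 each). The share of Lpar1 was lower and that of Lpar6 higher in each treated library than in each control, which restates their levels. These shares were picked out with their values in view and were not tested. S1P receptor transcripts summed to 7.07, 6.65 and 6.56 FPKM in the controls and 7.16, 6.68 and 7.21 FPKM with nattokinase, with overlapping groups. S1pr2 made up 82.5% ± 2.62 of this sum in the controls and 84.8% ± 0.996 with nattokinase.

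**Figure D2:**
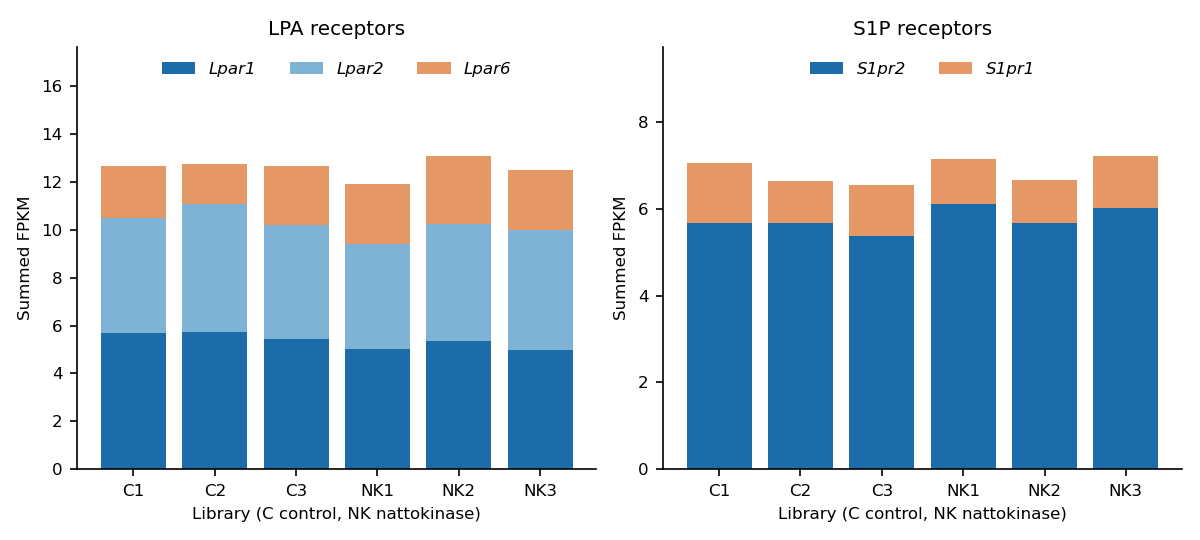
Stacked bars of FPKM (vertical axis, linear from 0) for the detected LPA receptors (left) and S1P receptors (right) in each library, with C1 to C3 the controls and NK1 to NK3 the nattokinase libraries. LPA receptor sums lie between 11.96 and 13.1 FPKM and S1P receptor sums between 6.56 and 7.21 FPKM, with S1pr2 the larger part of the latter in every library.

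Separation of the groups was common in these libraries. Of the 5 tested members 3 (Lpar1, Lpar6 and S1pr2) had groups that did not overlap, 2 higher and 1 lower, and of all tested genes 28.8% had such groups, 17.4% higher and 11.4% lower. The median log2 fold change of the 5 tested members was −0.047, beside 0.012 for all 10913 genes tested. The 95% intervals of Lpar1, Lpar2 and S1pr2 lay within −0.24 and 0.21 on the log2 scale.

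Beyond the 10 members, 50 other genes of LPA and S1P metabolism and of the signalling arm below the receptors were examined. Of these 36 could be tested, and 4 (11.1%) were called higher and 0 lower by limma. Of all genes 8.85% were called, 5.61% higher and 3.24% lower. One of the 4, Plpp3, reached 1 FPKM in the nattokinase libraries only and so entered the test through the group in which it was higher. Without genes that entered through 1 group only, a choice made after seeing the data, 3 of 35 were called (8.57%), beside 8.63% of all genes counted the same way. An unadjusted p under 0.05 was found for 7 of the 36 (19.4%), beside 22.9% of all genes. Without genes that entered through 1 group only, the 8.57% called is not above the 8.63% of all genes, both directions counted together. The 19.4% with an unadjusted p under 0.05 is not above the 22.9% of all genes. Over all 36 genes the share called, 11.1%, all higher, is above the 8.85% of all genes called and the 5.61% called higher. That difference rests on 4 genes and was not tested. The median log2 fold change of the 36 genes was 0.048. The 4 were Gnai1, Rhob, Cers6 and Plpp3.

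Gnai1 encodes an inhibitory G-protein alpha subunit, of the Gi class through which S1pr1 and several LPA receptors signal. It rose 1.39-fold, from 11.7, 10.7 and 11.0 FPKM in the controls to 14.4, 16.1 and 16.0 FPKM with nattokinase. The log2 fold change was 0.44 with an SE of 0.060, and the limma adjusted p was 0.0018. Gnai1 spans 18265135 to 18360355 on chromosome 5. The treated libraries lay well above the controls. The more abundant Gi gene Gnai2 had a log2 fold change of −0.097 and Gnai3 of 0.12, with limma adjusted p of 0.29 and 0.38. Of the 7 alpha subunit genes tested, including Gna12, Gna13, Gnaq and Gna11, 1 rose and 0 fell. That is 14.3% called, from 1 gene, beside 8.85% of all genes tested (5.61% higher and 3.24% lower).

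Rhob encodes a small GTPase whose transcript is itself inducible. It rose from 44.8, 49.7 and 52.0 FPKM to 63.5, 71.4 and 68.1 FPKM, 1.39-fold. Its log2 fold change was 0.46 with an SE of 0.064, at a limma adjusted p of 0.0019. Rhob spans 8497661 to 8500009 on chromosome 12. The groups did not overlap. Rhoa, a small GTPase gene downstream of Gna12 and Gna13, had a log2 fold change of 0.093 (limma adjusted p = 0.30), and Rock2, a kinase gene, of 0.24 (limma adjusted p = 0.31). Of 8 genes of the small GTPase arm, among them the exchange factors Arhgef1, Arhgef11 and Arhgef12, 1 rose and 0 fell. This share of 12.5%, from 1 gene, stands beside 8.85% of all genes tested (5.61% higher and 3.24% lower). The calls of Gnai1 and Rhob held under all 13 alternative settings.

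Cers6 and Plpp3 passed the threshold narrowly. Cers6, which encodes a ceramide synthase, stood at 5.45 ± 0.63 FPKM in the controls and rose to 6.79 ± 0.12 FPKM (SD, n = 3 each), 1.246-fold (log2 fold change 0.28, limma adjusted p = 0.042). Plpp3, which encodes a membrane phosphatase that breaks down LPA and S1P outside the cell, stood at 0.914 ± 0.054 FPKM in the controls and rose to 1.45 ± 0.24 FPKM, 1.59-fold (log2 fold change 0.35, limma adjusted p = 0.047). Cers6 kept its call in 3 of 13 alternative settings and Plpp3 in 2 of 13, and without control replicate 2 the limma adjusted p was 0.14 and 0.12.

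The remaining genes of lipid metabolism showed no call. Of the LPA-forming genes, 2 of 5 were tested, Gdpd1 with a log2 fold change of 0.11 and Agk with 0.019. All 5 LPA acyltransferase genes were tested and none was called, with Agpat5 at 0.16, Agpat2 at 0.14 and Agpat1 at −0.072. Among the 3 lipid phosphate phosphatase genes Plpp2 had 0.077 and Plpp1 0.046. The S1P lyase gene Sgpl1 had 0.11 (from 30.1 ± 0.54 to 32.4 ± 0.36 FPKM, SD, n = 3 each; limma adjusted p = 0.16), and the S1P phosphatase gene Sgpp1 had 0.098. Of 4 tested genes among Sphk2 and the ceramidases, Acer3 had 0.067, Asah2 0.026 and Asah1 0.017. Spns2, the S1P exporter of endothelium, had −0.14 (from 5.36 ± 0.26 to 4.77 ± 0.49 FPKM; limma adjusted p = 0.29), and the transporter gene Abcc1 0.042. Cers2 and Cers5 had 0.070 and 0.027.

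**Figure D3:**
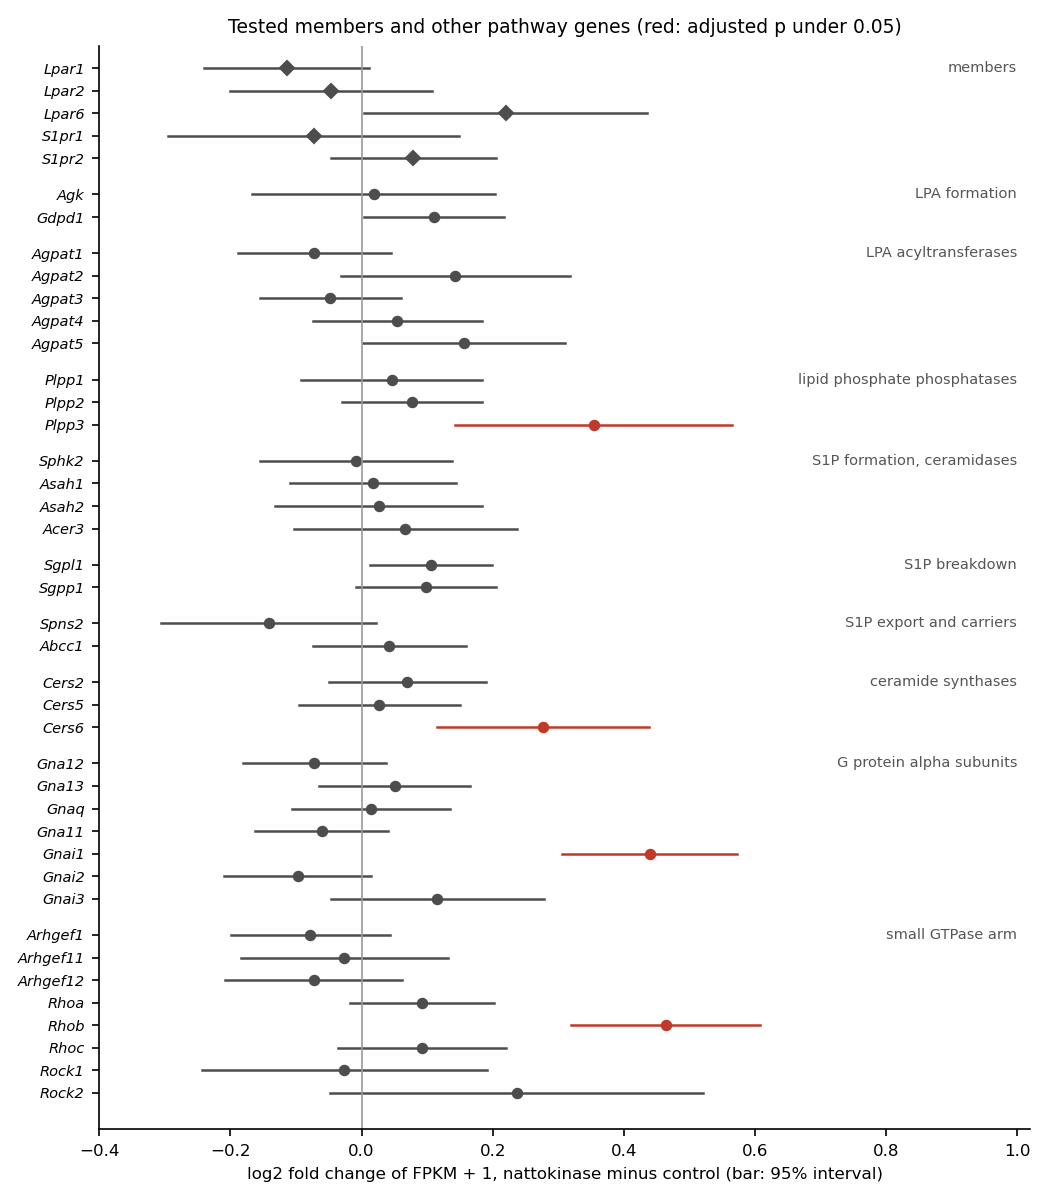
Log2 fold change on the log2(FPKM + 1) scale, nattokinase minus control (horizontal axis), with its 95% interval for the 5 tested members (diamonds) and 36 other tested genes (circles), grouped by list; red marks a limma adjusted p under 0.05. Only Gnai1, Rhob, Cers6 and Plpp3 are red, and the 5 members lie between −0.11 and 0.22.

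The labelled cell type was checked against marker genes. None of 8 common endothelial genes reached 1 FPKM in 3 libraries, and 4 of them (Cldn5, Emcn, Erg and Tie1) were without a read in any library. Of 4 lymphatic markers, Flt4 and Pdpn were present and Prox1 and Lyve1 had 0 reads. Of 8 fibroblast and mural markers 5 reached 1 FPKM in 3 libraries, and Lum, Cspg4 and Rgs5 did not. The 8 summed to 1923 to 2069 FPKM in the controls and 1753 to 1826 FPKM with nattokinase. Col1a1 (means 1403 ± 67.3 and 1236 ± 36.2 FPKM) and Col1a2 (524 ± 16.0 and 511 ± 11.3 FPKM) made up most of this sum. Both means were lower with nattokinase (SD, n = 3 each). Mean levels of Pdgfra (7.45 and 8.32 FPKM), Pdgfrb (17.0 and 19.4) and Dcn (21.7 ± 0.96 and 22.1 ± 0.56) were higher, so the sum does not stand for all these markers. For Col1a2 and Dcn the difference was smaller than the SD of the controls. Of 5 leukocyte and 4 epithelial markers, 0 and 1 (Krt8) reached 1 FPKM in 3 libraries. Protein-coding genes took 95.4% to 96.7% of reads in the controls and 98.3% to 98.4% with nattokinase. A single gene, CT010467.1, took 1.85% to 2.89% of reads in the controls and 0.52% to 0.61% with nattokinase. Library totals were 15044778 to 16496433 reads in the controls and 17525090 to 18341370 with nattokinase. The summed marker level, the protein-coding share and the library total differ between the groups. Their part in the small differences of Lpar1, Lpar6 and S1pr2 was not tested apart from the rescaling to protein-coding totals. After that rescaling the log2 fold changes of these genes were −0.14, 0.20 and 0.049, and none was called.

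**Figure D4:**
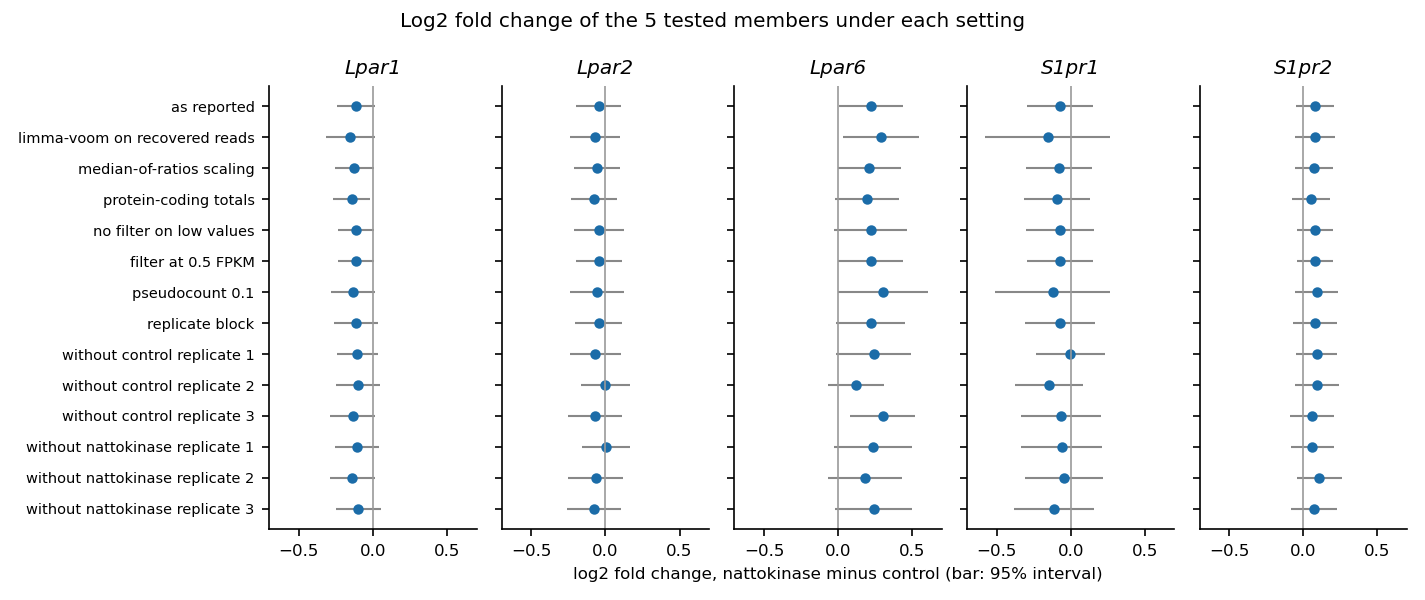
Log2 fold change, nattokinase minus control (horizontal axes), of the 5 tested members with 95% intervals under the reported fit and 13 alternative settings (rows). The points of Lpar1 lie below 0 and those of Lpar6 and S1pr2 above 0 in each row, those of Lpar2 straddle 0 when single libraries are left out, and no adjusted p in any row is under 0.12.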

How the data were processed

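RNA of 6 samples, 3 control and 3 nattokinase, was grouped by title. Per the labels' protocols, total RNA went into standard Illumina libraries. The submitters' processing notes name HISAT2 2.1.0, Trimmomatic 0.38, DESeq2 1.22.1, featureCounts 1.6.0 and other tools without roles, and the human build GRCh38, although the identifiers are from mouse. The authors deposited FPKM for 55536 genes, a unit found from the values: multiplied by merged exon length in GENCODE M21, 100% of values above 0 were whole multiples, within 0.05, of 1 step per library, which gives the reads. All 55536 identifiers matched, and 0 columns of other samples were found.

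Genes reaching 1 FPKM in 3 or more libraries were tested on the log2(FPKM + 1) scale, using limma 3.58.1 in R 4.3.3 (group as the only term, intensity trend, robust prior, two-sided, Benjamini-Hochberg over all genes). The scale understates changes of low genes. Members and lists were chosen with earlier results of these data known. All 10 members are named, with up to 3 tested genes of smallest p per list. Other genes are named after their values were seen. On data made with known changes among 10913 genes, 44% of 1.25-fold, 88% of 1.5-fold and 98% of 2-fold changes were recovered. The made data used the control means, the same spread parameter for every gene, and changed genes drawn from all levels. These rates therefore do not give the recovery for the members, whose levels are low and whose spread in the real libraries can differ. Replicates of a group correlated at 0.992 to 0.995 and differed by more than counting error. Same-numbered replicates did not deviate together across groups (correlations −0.089 to −0.044). Promoter sequences are from RefSeq.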

Additional observations from a re-analysis of the deposited data

How the results depend on the processing

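The 13 alternatives were limma-voom on recovered reads, median-of-ratios scaling, protein-coding totals, no filter, a filter at 0.5 FPKM, a pseudocount of 0.1, a replicate block, and the omission of each library in turn. Under each of them 0 members were called, and the adjusted p of tested members ran from 0.12 to 0.99. The count of other pathway genes called, 4 as reported, was 2, both higher, with median-of-ratios scaling, protein-coding totals, no filter, the filter at 0.5 FPKM and the replicate block. It ranged from 2 to 5 over the left-out libraries, with 2 to 4 higher and 0 to 1 lower, where the lower gene was Gnai2 without control replicate 1 (adjusted p = 0.045) and Rock2 was then higher (adjusted p = 0.0066). Differences near 0 changed sign. Lpar2 ran from −0.078 to 0.0049 over the left-out libraries, Agk from −0.032 to 0.051, Asah1 from −0.026 to 0.076 and Cers5 from −0.016 to 0.053. With protein-coding totals Agk had −0.0023, Asah1 −0.017 and Cers5 −0.0075, and Asah1 had −0.00086 with limma-voom. The cause of these shifts was not tested. Of all calls 63.4% were higher as reported and 49.0% with protein-coding totals. The replicate block called 439 genes higher and 249 lower, beside 612 and 354 without it, and the replicate number is not stated to mark a shared culture. Depth limits Lpar3, Lpar4, S1pr3 and Enpp2, with at most 2 reads in any library, and leaves wide intervals for S1pr1 and Sphk1.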
